A study of Mus musculus with 5 samples.

Results

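The autosomal Gata genes are Gata2, Gata3, Gata4, Gata5 and Gata6, taken by symbol from the GENCODE vM1 annotation of the mouse mm9 genome. They are 5 of 21418 protein-coding genes on chromosomes 1 to 19, and all 5 were found. They were placed against broad peaks of H3K27me3, the repressive histone mark written by Polycomb Repressive Complex 2 (PRC2), from mouse embryonic fibroblasts (MEFs). All cells carried loxP-flanked alleles of Eed, which encodes a PRC2 subunit, and were transduced with lentivirus for stable expression of a transgene. The K27R group expressed histone H3.3 with arginine in place of the lysine, the K27M group expressed H3.3 with methionine there, as in diffuse midline glioma, and the EZHIP group expressed human EZHIP, the PRC2 inhibitor of PFA ependymoma. By the study's methods the vector carried the EF1a promoter and transduced cells were selected with puromycin. Each group had 1 library, so there was no replicate error and no test between groups. The Control and EEDnull libraries, the latter from a single clone, were not analysed here.

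GATA factors are zinc finger proteins that bind the DNA motif they are named for and switch on genes of particular cell lineages. Gata2 and Gata3 act in blood, with Gata2 in stem cells and mast cells and Gata3 in T cells. Gata4, Gata5 and Gata6 act in heart and endoderm. In cells of another lineage such developmental regulators are typical PRC2 targets, and PRC2 is recruited to their CpG islands, in which the dinucleotide CG is frequent, from where H3K27me3 spreads. The comparison asked which part of the mark over each Gata gene was still called as a peak in cells with an inhibitor.

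The lists hold positions only, in steps of 200 bp. Peak height and depth were unknown, and a lost peak means a signal below the caller's limits and not an absent mark. As a check of the cell type, 14 fibroblast genes were looked up, and 1 of them, Pdgfra, had its start site in a K27R peak. Of 10 genes of other lineages, 8 did, and Ptprc and Pecam1 did not. The closest neighbouring peaks lay 0 bp apart in the K27R list, 5200 bp in K27M and 1200 bp in EZHIP, while the study's methods state the same joining distance for every H3K27me3 list. Merging all peaks up to 10000 bp apart moved the share of the 5 Gata genes under EZHIP from 43.4 to 49.2% and left that under K27M at 61.9%.

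All 5 Gata genes had their start site in a K27R peak, where 28.2% of autosomal protein-coding genes did. All 5 were also in a K27M peak (8.94% of all genes), and 4 of 5 were in an EZHIP peak (7.96% of all genes). Gata6 was the exception. Among genes with a start site in a K27R peak, 31.6% kept it in a K27M peak, 28.2% in an EZHIP peak and 24.1% in both, as Gata2, Gata3, Gata4 and Gata5 did. The Gata6 combination, K27M without EZHIP, was found in 7.5% of these genes. The start site here is the 5′ end of the gene record, and for Gata2, Gata3 and Gata4 other annotated start sites had other values. With the most downstream start site of a transcript with a consensus coding sequence (CCDS), 3 of 5 genes were in a K27M peak and 2 of 5 in an EZHIP peak.

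A gene can have several promoters, and in 2 of these genes a downstream start site was outside both the K27M and the EZHIP peaks that lay over the upstream one. The upstream 300 bases of those sites are shown because they carry this contrast, read from the mm9 sequence in the direction of transcription up to the base before the start site, with each CG dinucleotide in capitals. The Gata2 windows are chr6:88143585-88143884 and chr6:88148358-88148657 on the plus strand, and the Gata3 windows are chr2:9811662-9811961 and chr2:9800228-9800527 on the minus strand.
Gata2 upstream start site, in K27R, K27M and EZHIP peaks: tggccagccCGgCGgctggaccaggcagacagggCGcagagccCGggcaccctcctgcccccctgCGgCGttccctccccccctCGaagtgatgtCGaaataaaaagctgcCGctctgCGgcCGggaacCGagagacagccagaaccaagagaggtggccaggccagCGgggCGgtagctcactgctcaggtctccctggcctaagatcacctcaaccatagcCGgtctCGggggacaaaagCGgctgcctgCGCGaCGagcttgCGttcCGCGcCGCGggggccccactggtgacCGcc
Gata2 downstream start site, in a K27R peak only: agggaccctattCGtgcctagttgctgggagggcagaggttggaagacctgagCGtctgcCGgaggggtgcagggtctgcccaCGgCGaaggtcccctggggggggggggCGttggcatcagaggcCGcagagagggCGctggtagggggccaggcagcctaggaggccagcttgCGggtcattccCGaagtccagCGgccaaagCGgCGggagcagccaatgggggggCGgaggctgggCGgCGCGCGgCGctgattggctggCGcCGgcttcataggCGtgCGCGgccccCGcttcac
Gata3 upstream start site, in K27R, K27M and EZHIP peaks: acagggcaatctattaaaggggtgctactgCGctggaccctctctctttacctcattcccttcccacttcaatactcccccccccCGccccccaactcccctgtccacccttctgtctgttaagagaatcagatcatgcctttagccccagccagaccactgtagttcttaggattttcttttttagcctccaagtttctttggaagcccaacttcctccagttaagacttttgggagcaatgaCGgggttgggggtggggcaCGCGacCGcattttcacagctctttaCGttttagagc
Gata3 downstream start site, in a K27R peak only: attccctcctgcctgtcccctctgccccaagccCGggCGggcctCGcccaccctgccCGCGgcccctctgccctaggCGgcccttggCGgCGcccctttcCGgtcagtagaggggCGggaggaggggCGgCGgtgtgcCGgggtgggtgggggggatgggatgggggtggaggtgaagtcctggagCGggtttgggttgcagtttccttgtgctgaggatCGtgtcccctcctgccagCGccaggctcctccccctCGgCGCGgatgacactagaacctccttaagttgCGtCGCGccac

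These windows held 26 CG dinucleotides at the upstream and 25 at the downstream Gata2 start site. For Gata3 they held 7 at the upstream site, which was in K27M and EZHIP peaks, and 22 at the downstream site, which was in neither. Over all autosomal protein-coding genes the median of such windows was 10 (quartiles 3 and 20). It was 15 (quartiles 8 and 25) for the 1458 genes whose start site was in all 3 lists, and 4 (quartiles 2 and 10) for the 3887 genes in a K27R peak alone. The Gata2 and Gata3 sites outside both inhibitor lists thus had CG counts above the median of the genes in all 3 lists. The downstream Gata3 window overlaps an exon of Gm13256, a gene on the opposite strand.

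Gata2 (ENSMUSG00000015053.8, chromosome 6, 88143885 to 88157024, plus strand) lay wholly within a K27R region of 136.0 kb, from 88058801 to 88194800, which reached 85.1 kb upstream and 50.9 kb downstream of the first start site. The K27M peak over this site spanned 7.0 kb (88141201 to 88148200). The EZHIP peak spanned 7.2 kb (88141001 to 88148200), so that both ended at the same bin inside an intron and their upstream edges were 0.2 kb apart. They covered 4.32 kb of the gene each, or 32.8%, but 3.28% of its exon bases. The downstream start site at 88148658 fell 458 bp past the edge of both peaks. An island of 3454 bp, from 88146371 to 88149824, ran across that edge and over the downstream start site, so that the residual peaks took in part of it. K27M kept another peak of 4.4 kb in the same region, 39.1 to 43.5 kb downstream of the start site and beyond the gene, which EZHIP did not.

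**Figure D1:**
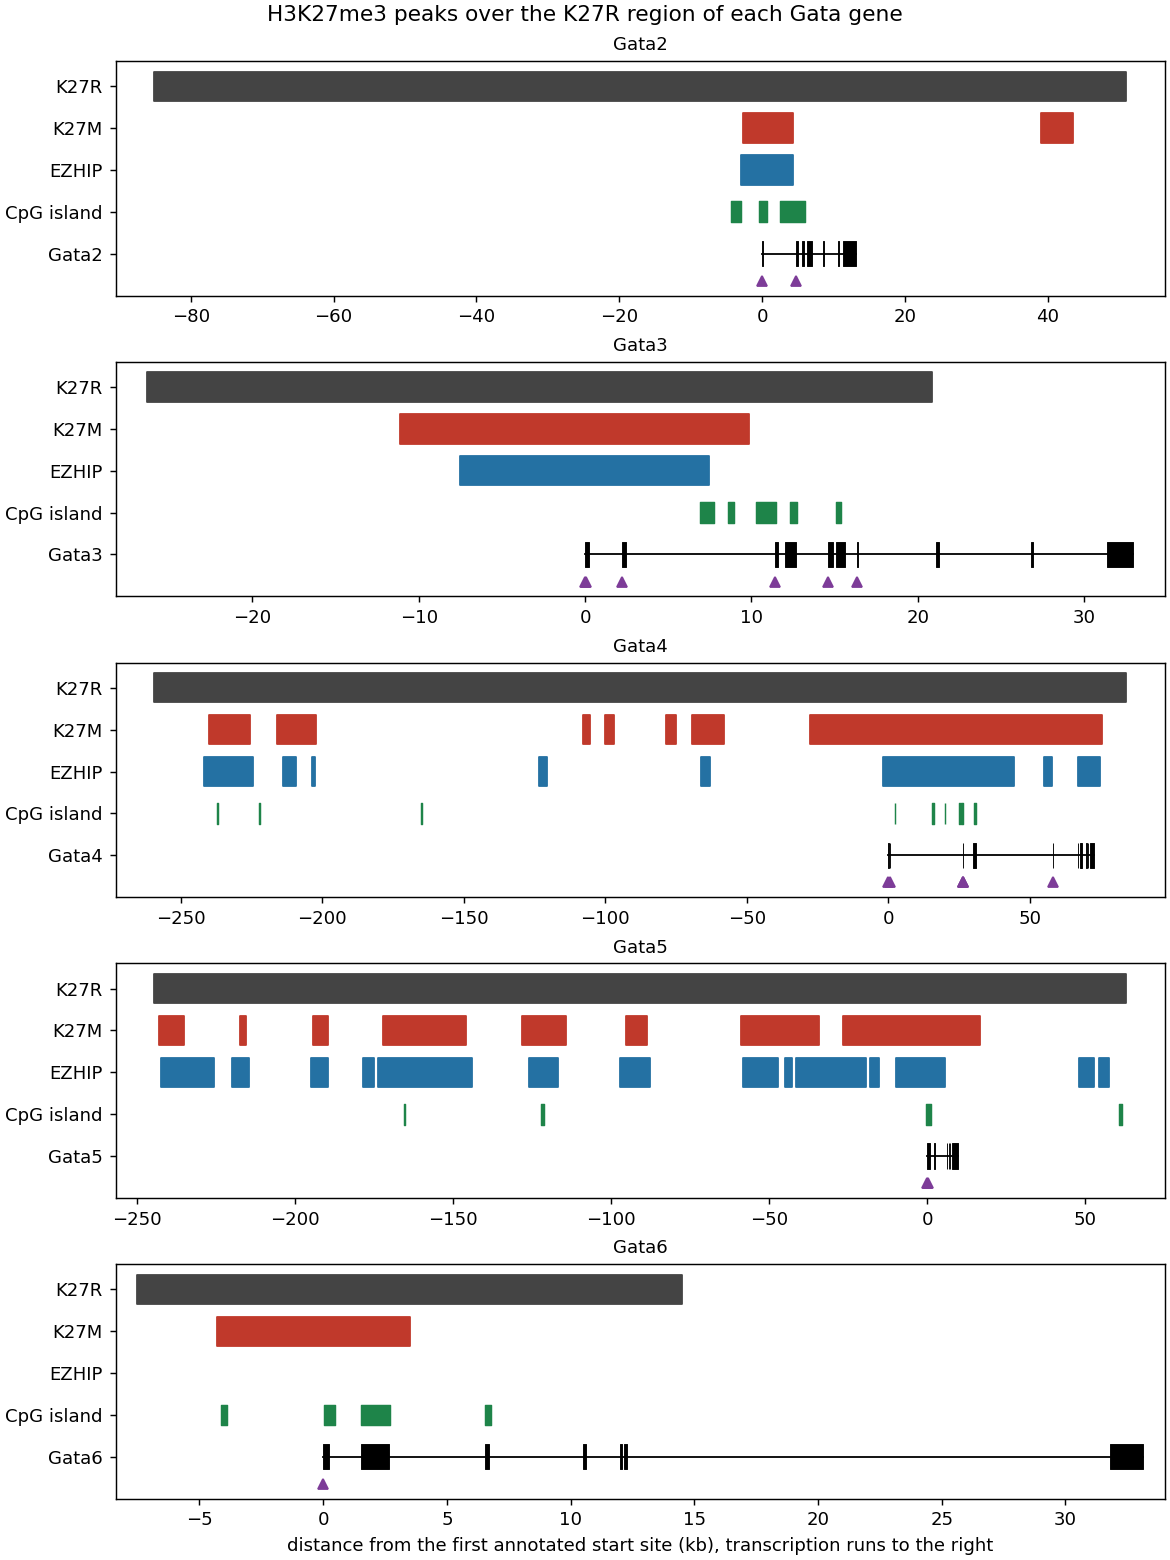
Peaks of the K27R, K27M and EZHIP lists over the K27R region of each Gata gene, with CpG islands (green), exons (black) and annotated start sites (triangles). The horizontal axis is the distance from the first start site in kb, each panel with its own scale, and 1 library stands behind each list. Gata6 has 1 K27M peak and no EZHIP peak, and the Gata4 and Gata5 regions hold 7 and 8 K27M peaks and 8 and 14 EZHIP peaks.

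Gata3 (ENSMUSG00000015619.9, chromosome 2, 9778705 to 9811661, minus strand) also had residual peaks upstream of a start site with none. The K27R region spanned 47.2 kb (9790801 to 9838000) and covered 63.3% of the gene, ending in an intron. The K27M peak was 21.0 kb wide (9801801 to 9822800) and the EZHIP peak 15.0 kb (9804201 to 9819200), which lay wholly inside it. K27M reached 3.6 kb further upstream and 2.4 kb further downstream. Of the gene, 29.9% was left under K27M and 22.6% under EZHIP, and in both 10.4% of the exon bases.

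Gata3 has 6 annotated start sites, all of them in the K27R region. The 3 upstream ones, from 9809411 to 9811661, were in K27M and EZHIP peaks. The 3 downstream ones were in neither, among them the site at 9800227, from which the CCDS transcript starts. That site was 1574 bp from the K27M peak and 3974 bp from the EZHIP peak, although an island of 1180 bp lies over it. Of 5 islands in the Gata3 region, 2 touched a K27M peak and 1 touched an EZHIP peak. The start site of 4930412O13Rik, a gene on the opposite strand inside Gata3, was covered by the K27M peak but not by the EZHIP peak. ChIP-Seq does not tell strands apart, so that overlapping genes share their peaks.

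**Figure D2:**
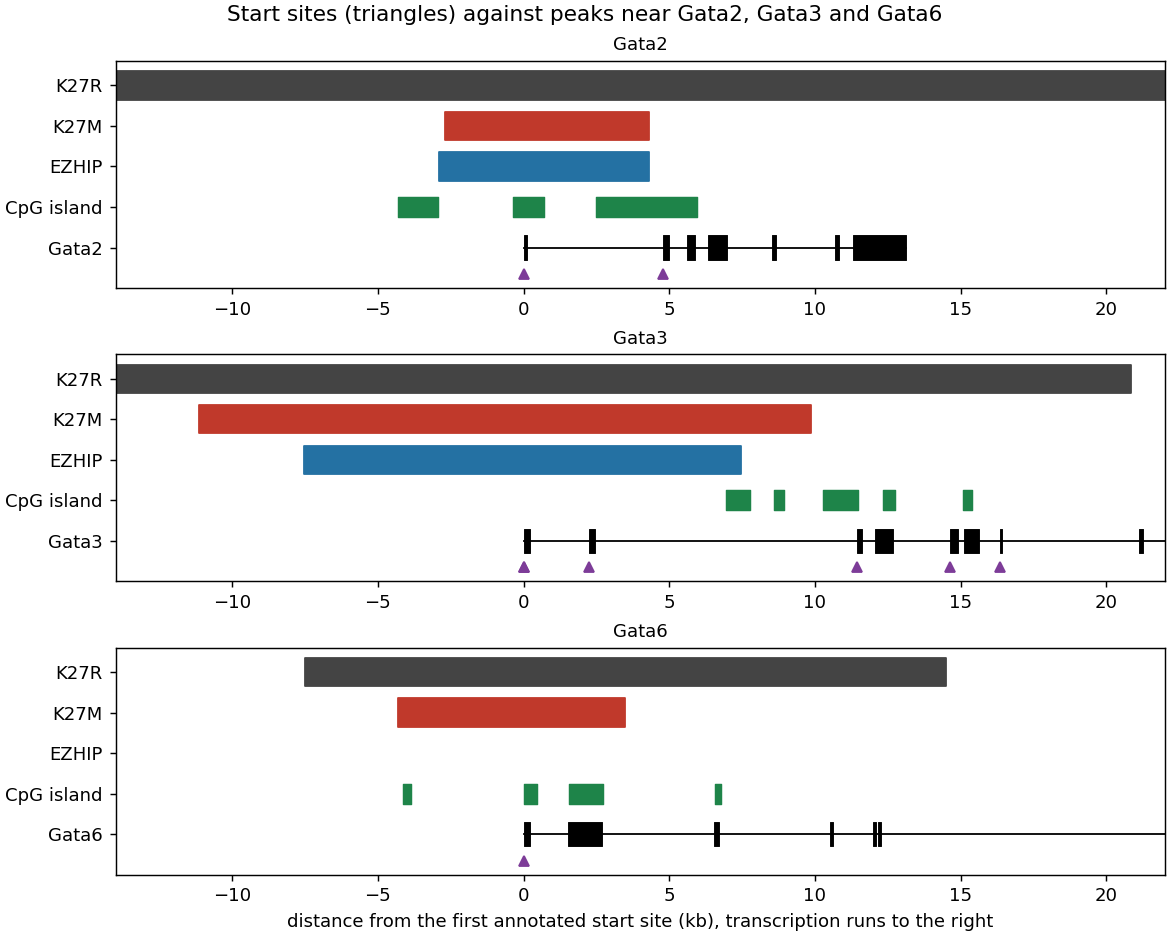
Peaks, CpG islands (green), exons (black) and annotated start sites (triangles) from 14 kb upstream to 22 kb downstream of the first start site of Gata2, Gata3 and Gata6, 1 library per list. The downstream Gata2 start site lies 458 bp past both inhibitor peaks, the Gata3 start site of the CCDS transcript lies 1574 bp past the K27M peak, and Gata6 has no EZHIP peak.

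Gata4 (ENSMUSG00000021944.8, chromosome 14, 63817759 to 63890529, minus strand), a regulator of heart and endoderm, kept the longest residual peak of the 5 genes in either list. Its K27R region spanned 343.2 kb (63806601 to 64149800). A single K27M peak of 103.0 kb (63815001 to 63918000) covered 100% of the gene. EZHIP left 3 peaks over the gene that covered 72.5% of it and 89.4% of its exon bases. The widest of them spanned 46.4 kb (63846001 to 63892400), and was 2.22-fold narrower than the K27M peak. Among all genes with a start site in such a peak, 96.9% had a narrower K27M peak than Gata4 and 95.2% a narrower EZHIP peak.

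The EZHIP list left 2 gaps inside Gata4, of 9.4 kb (63823401 to 63832800) and 10.6 kb (63835401 to 63846000). Merging peaks up to 10000 bp apart closed the narrower gap and moved the Gata4 share under EZHIP from 72.5 to 85.4%. The gaps held no CpG island and 9.04 and 10.5 CG dinucleotides per kb. The part of the gene under the widest EZHIP peak held 6 islands and 20.1 CG per kb. The parts under the narrower EZHIP peaks held no island. They had 13.6 CG per kb (63817759 to 63823400) and 8.08 (63832801 to 63835400), the latter below both gaps. Of 6 start sites, all were in the K27M peak and 5 in an EZHIP peak. The exception was the site at 63832444, 357 bp from the nearest EZHIP peak.

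Gata5 (ENSMUSG00000015627.4, chromosome 2, 180059838 to 180069404, minus strand), a heart and gut regulator and the shortest of these genes at 9.57 kb, lay in a K27R region of 307.4 kb (180006601 to 180314000). The K27M peak over the gene spanned 43.4 kb (180052601 to 180096000) and covered 100% of it. The EZHIP peak spanned 15.6 kb (180063801 to 180079400), which was 2.78-fold narrower, and covered 58.6% of the gene from its start site into an intron, or 32.0% of exon bases. Over the whole region the order was the other way, with 129.4 kb under 8 K27M peaks (42.1%) and 141.6 kb under 14 EZHIP peaks (46.1%). With peaks up to 10000 bp apart merged, 44.6% of the region was under K27M and 52.0% under EZHIP. Gata5 was the 1 gene of the 5 whose region had more under EZHIP than under K27M. When only peaks of at least 5000 bp were counted, the Gata5 shares were nearly equal, at 39.9% under K27M and 40.6% under EZHIP. At that setting the order turned in the Gata2 region, to 5.15% under K27M and 5.29% under EZHIP. Both Gata5 start sites, 145 bp apart, were in both inhibitor lists.

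Gata6 (ENSMUSG00000005836.8, chromosome 18, 11052508 to 11085633, plus strand) shares heart and endoderm roles with Gata4. The K27R region was the narrowest of the 5, at 22 kb (11045001 to 11067000), and covered 43.8% of the gene. The K27M peak of 7.8 kb (11048201 to 11056000) covered 10.5% of the gene and 43.5% of its exon bases. With 5000 bp on either side of the gene included, 18.1% was under K27M. No EZHIP peak touched the region, and the nearest was 345.9 kb from the start site. In the 453 genes with the same combination, the median distance to an EZHIP peak was 71.2 kb (quartiles 1.56 and 401.5 kb), and 71.7% were closer. Chromosome 18 as a whole held 76 K27M and 117 EZHIP peaks.

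The share of each gene under peaks set the 5 genes in order. In K27R cells Gata2, Gata4 and Gata5 were covered in full and Gata3 and Gata6 in part. With K27M, Gata4 and Gata5 stayed at 100%, Gata2 and Gata3 were at 32.8 and 29.9%, and Gata6 at 10.5%. With EZHIP the order was Gata4, Gata5, Gata2, Gata3 and Gata6, at 72.5, 58.6, 32.8, 22.6 and 0%. EZHIP covered less than K27M in 4 genes and as much in Gata2. For all 6041 genes with a start site in a K27R peak, the median gene had 0% under K27M (upper quartile 10.2%) and 0% under EZHIP (upper quartile 8.98%). With 1 library per group it cannot be said whether neighbours in this order differ beyond error.

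**Figure D3:**
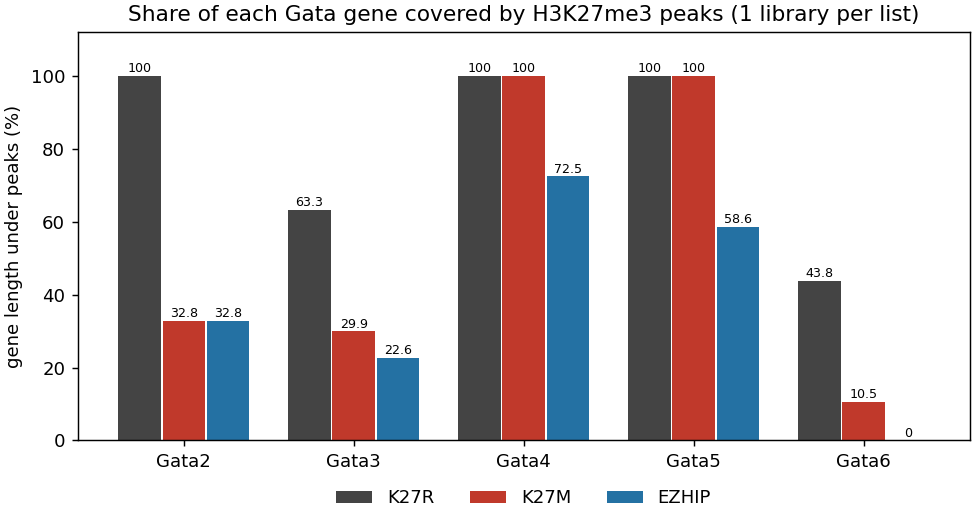
Share of gene length (%, vertical axis from 0) under peaks of the K27R, K27M and EZHIP lists for each Gata gene, 1 library per list and no error bars. K27M bars stay at 100% for Gata4 and Gata5, and the EZHIP value is 72.5% for Gata4 and 0% for Gata6.

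The residual share was also measured over the whole K27R region, which differs in width between genes. K27R regions of Gata4 and Gata5 were wider than 97.0 and 95.5% of 3437 autosomal regions with a protein-coding start site (median 51.8 kb, quartiles 22.2 and 117.0 kb), and that of Gata2 was wider than 79.0%. The Gata3 and Gata6 regions were below the median. K27M peaks covered 44.5% of the Gata3 region, 44.3% of Gata4, 42.1% of Gata5, 35.5% of Gata6 and 8.38% of Gata2. Where a K27M peak was left at all, the median region had 15.6% (quartiles 7.25 and 33.2%; 1726 regions). Gata3, Gata4, Gata5 and Gata6 were thus above the upper quartile and Gata2 was in the lower part of the range.

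EZHIP peaks covered 46.1% of the Gata5 region, 31.8% of Gata3, 25% of Gata4 and 5.29% of Gata2. The median of the 1739 regions with an EZHIP peak was 11.9% (quartiles 5.54 and 24.0%). Gata2 was again low, with both inhibitors leaving 124.4 kb of its 136.0 kb region without a peak. The positions of the K27M and EZHIP peaks were then compared. All of the EZHIP length in the Gata3 region lay under K27M peaks, as did 97.2% in Gata2, 93.2% in Gata4 and 72.3% in Gata5. Conversely, the share of K27M length under EZHIP was 61.4, 71.4, 52.6 and 79.1% in Gata2, Gata3, Gata4 and Gata5.

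**Figure D4:**
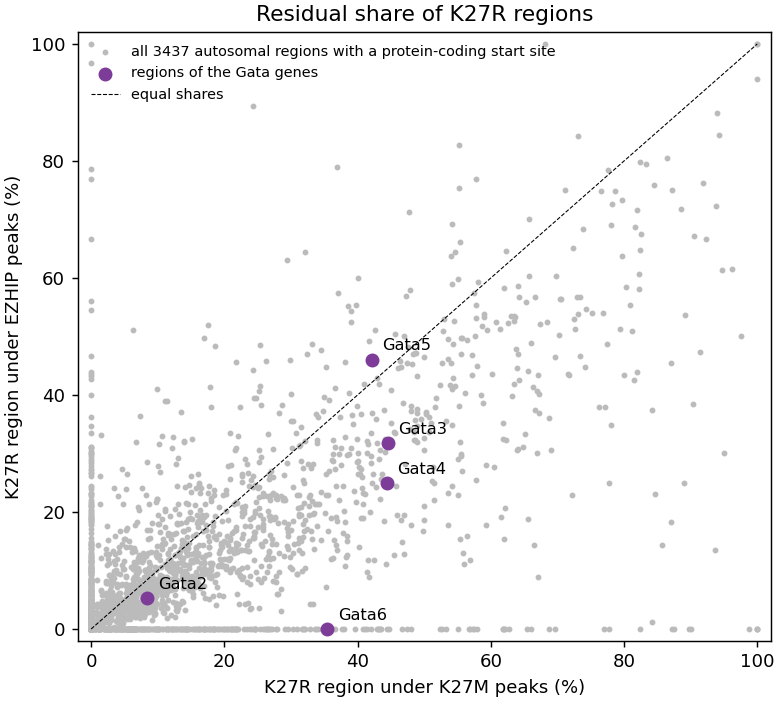
Share of each K27R region under K27M peaks (horizontal axis, %) and under EZHIP peaks (vertical axis, %) for 3437 autosomal regions with a protein-coding start site (grey) and the regions of the 5 Gata genes (purple), with a dashed line at equal shares. Gata5 lies above the line at 42.1 and 46.1%, Gata3, Gata4 and Gata2 lie below it, and Gata6 lies on the horizontal axis at 35.5%.

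Counted over every annotated start site, 17 in all, 17 were in a K27R peak, 13 in a K27M peak and 11 in an EZHIP peak, and 4 were in neither inhibitor list. Start sites of 1 gene share a region and are not independent. Over all start sites of autosomal protein-coding genes, 22.2% were in a K27R peak, and of those 30.4% were in a K27M and 27.1% in an EZHIP peak. The share in neither inhibitor list was not computed, so the count of 4 has no comparison. Some but not all start sites were in a K27M peak in 2 of the 4 Gata genes with several sites (Gata2 and Gata3), and in an EZHIP peak in 3 of 4 (Gata4 in addition). Among 2365 genes with several start sites, all in a K27R peak, 16.2% were divided in this way by K27M and 18.8% by EZHIP. Gata3 and Gata4 have 6 sites each, and genes with more sites have more occasions to be divided.

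CpG islands of the same regions were counted next. The 5 K27R regions held 25 islands, of which 17 touched a K27M peak and 13 an EZHIP peak. All 13 were also in K27M peaks, and 8 were in neither list. In all autosomal K27R regions with a protein-coding start site, 52.5% of islands touched a K27M peak and 45.9% an EZHIP peak. The shares of those islands in both lists and in neither were not computed, so the counts of 13 and 8 have no comparison. All 6 islands inside Gata4 were in both lists, and the island over the Gata5 start site (1334 bp) was as well. The Gata6 islands were in K27M peaks in 3 of 4 cases and in EZHIP peaks in 0 of 4.

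The density of CG dinucleotides was highest where both lists kept a peak. For Gata2 it was 39.4 per kb under both lists and 13.6 under neither. For Gata3 these values were 23.3 and 17.9, for Gata4 16.2 and 10.5, and for Gata5 13.0 and 11.4. In Gata6 the part under K27M alone held 51.4 per kb and the rest of the region 10.2. CG was thus denser under both lists than under neither in each of the 4 genes that kept both, and this was so in 90.1% of 1427 autosomal regions with both lists. The medians of those regions were 21.7 (quartiles 16.2 and 29.4) and 10.7 per kb (quartiles 8.78 and 12.9). The share of bases in CpG islands was also higher under both lists than under neither in Gata2, Gata4 and Gata5. In Gata3 it was 3.51% under both, 11.0% under K27M only and 7.23% under neither. The Gata6 part under K27M, which had no EZHIP peak, was denser in CG than any residual part of the other 4 genes.

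**Figure D5:**
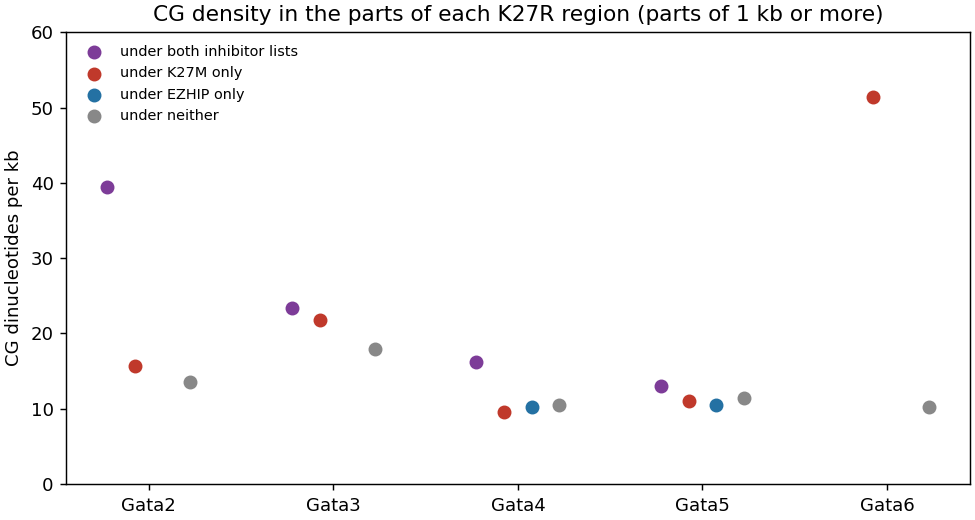
CG dinucleotides per kb (vertical axis, from 0) in the parts of each K27R region under both inhibitor lists, under K27M only, under EZHIP only and under neither, for parts of 1 kb or more. The part under both lists is the densest in Gata2 (39.4), Gata3 (23.3), Gata4 (16.2) and Gata5 (13.0), and Gata6 has 51.4 under K27M only and 10.2 under neither.

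Other genes had their start site in the same 5 K27R regions, 20 in all, of which 12 were protein-coding. Of the 20, RNA genes included, start sites of 9 were in K27M peaks and of 7 in EZHIP peaks. The protein-coding ones in K27M peaks were 4930412O13Rik, 9230102O04Rik, Gm14318, Tdh, Slco4a1 and Ntsr1, and all but 4930412O13Rik were also in EZHIP peaks. The start sites of 4930412O13Rik, 9230102O04Rik and Gm14318 lay under the same K27M peak as that of Gata3 or Gata5. Of all protein-coding genes with a start site in a K27R peak, 31.6% were in a K27M and 28.2% in an EZHIP peak. The 20 neighbours are of mixed gene types and not a like set, and a difference was not tested. In the Gata4 region the start sites of Neil2, a DNA glycosylase, Blk, a B cell tyrosine kinase, and Fam167a were in no inhibitor peak, while that of Tdh, 237.4 kb upstream of the Gata4 start site, was in both. In the Gata5 region Slco4a1, an organic anion transporter, and Ntsr1, the neurotensin receptor, were in both lists at 121.5 and 165.3 kb from the Gata5 start site. Of the muscle microRNA genes there, Mir1a-1 was in both lists and Mir133a-2 in neither. The Gata2 neighbour Dnajb8 was in neither.

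The genes with the most similar peak pattern were found from the bins covered in each list within 20 kb of the start site, as the Jaccard index over 600 bins, which shares much with region width and is a description only. The closest to Gata2 were Lrrc63 (0.98), Nrgn (0.97) and Wscd2 (0.97). The Gata3 pattern was most like Chd7 (0.94), Ly6h (0.94) and Msi1 (0.93). For Gata4 these were Kcnip3 (0.93), Grid2ip (0.92) and Pdx1 (0.92), and for Gata5 Foxn4 (0.91), Insm1 (0.91) and Zdbf2 (0.90). Gata6 was closest to Gm9955 (0.89), Hcrtr2 (0.85) and Nrg3 (0.80). Among the Gata genes the index ran from 0.29 for Gata4 with Gata6 to 0.76 for Gata3 with Gata5.

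Partners and targets of GATA factors were then looked up, as 64 autosomal genes in 6 lists. Of these, 29 had a start site in a K27R peak, 17 in a K27M peak and 13 in an EZHIP peak, and the 13 were in both. The shares over all autosomal protein-coding genes were 28.2, 8.94 and 7.96%. All 9 other proteins with a GATA-type zinc finger, such as Trps1, Gatad2a and Mta1, were in no peak of any list.

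Of 14 cofactors, 6 had their start site in a K27R peak and 5 of them in both inhibitor lists. These were Lmo2 and Tal1, partners of Gata2 in blood stem cells, and the heart factors Nkx2-5, Tbx20 and Hand2. Lmo2 kept a peak of 40.6 kb with K27M and 43.4 kb with EZHIP over its start site, and Tal1 31.0 and 23.8 kb. Tcf3 was in a K27R peak alone. The start sites of Zfpm1 and Zfpm2, the Friend of GATA cofactors, were in no peak of any list. Those of the other cofactors Ldb1, Lyl1, Runx1, Tbx5, Mef2c and Srf were also in none.

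Among endoderm and gut targets, 10 of 13 were in a K27R peak, 6 in a K27M and 5 in an EZHIP peak. Among them, the start sites of the transcription factors Foxa1, Foxa2, Sox17 and Sox7 were in all 3. The start sites of 4 genes of the list, a transcription factor as well as the differentiation products Ttr, Afp and Fabp1, were in a K27R peak alone. Foxa3 had a K27M peak of 3.2 kb over its start site and no EZHIP peak.

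Of 11 blood and mast cell targets (Spi1, the remaining gene of that list, was not matched by symbol), 5 had start sites that were in a K27R, 4 in a K27M and 1 in an EZHIP peak. The growth factor receptors Kit and Epor and the globin gene Hba-a1 had the Gata6 combination, with K27M peaks of 8.8, 2.8 and 16.0 kb over their start sites and no EZHIP peak there. Gfi1b kept both. The list of T cell targets held 8 genes, among them Th, the tyrosine hydroxylase gene of catecholamine neurons, which was in no peak of any list at its start site. Of the 8, 5 were in a K27R peak, including the type 2 cytokine genes Il4, Il5 and Il13, which were in neither inhibitor list, and Cd3e, which was in both. Heart targets were in K27R peaks in 3 of 9 cases (Nppb, Myh6 and Myh7), and the cardiac myosin gene Myh6 was in both inhibitor lists. Il4 and Il13 shared a K27R peak of 32 kb, and Myh6 and Myh7 shared another of 100.8 kb. The genes of each pair are thus not independent in these counts.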

How the data were processed

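Peak lists of 3 H3K27me3 ChIP-Seq libraries from MEFs were used, 1 per group, with groups taken from the sample titles. By the study's methods, the authors aligned reads to mm9 with bowtie1 (Bowtie 1.0.0 in the submitters' processing notes) and called broad peaks per library with MOSAiCS-HMM. The deposited lists give the chromosome, start and end of peaks, with no counts or scores. The background library of the caller is not given in the sources used here, and depth is unknown. Starts and ends lay on 200 bp bins and inside the NCBIM37 (mm9) chromosomes. Positions are printed counting from 1.

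A start site was counted when a peak lay over it. CpG islands were found by scoring 17 for a CG and -1 for other bases (over 200 bp, at least 50% G+C, observed to expected ratio above 0.6), which gave 25714 on chromosomes 1 to 19. Regions compared were those K27R peaks that hold a start site of a protein-coding gene. Named genes are the members, genes with a start site in the same K27R regions, the 3 most similar genes per member outside its own region, and lists of GATA partners, targets and markers. Members and lists were chosen with earlier results of these data known. Interval and island steps were checked on simulated data. Scripts ran under Python 3.11.15 with pandas 2.3.3, scipy 1.17.1 and numpy 2.4.6. Alternatives were other peak widths, merging of neighbours, distances and start sites.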

Additional observations from a re-analysis of the deposited data

How the results depend on the processing

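With 1 library per group, the results describe these libraries and no error between cell lines could be given. No paired analysis was possible because each group has 1 library and no test was made. Of the alternatives, the planned ones left the number of Gata start sites in peaks, and of partner and target genes in peaks, within 1.5-fold. Start sites of CCDS transcripts were tried after seeing the data. With the most upstream such site, K27M held 4 and EZHIP 3 of the 5 genes. With the most downstream one, which differs for Gata2, K27M held 3 and EZHIP 2. Shares over all 5 genes that left the 95% exact interval of the bins, which takes bins as independent, are as follows. Merging peaks up to 10000 bp apart moved the share of all 5 genes under EZHIP from 43.4 to 49.2%, and the residual share of their K27R regions from 37.6 to 40.9% in K27M and from 29.2 to 33.1% in EZHIP. When shorter peaks than 5000 bp were left out, these region shares were 35.2% for K27M and 25.5% for EZHIP. K27M stayed above EZHIP in these region shares, but in the Gata2 region alone K27M fell from 8.38 to 5.15%, below the 5.29% of EZHIP. The largest move for a single gene under merging was Gata4 under EZHIP, from 72.5 to 85.4%. With 5000 bp on either side of the gene, the K27M share went from 10.5 to 18.1% for Gata6 and from 100 to 97.3% for Gata4. Region shares under merging were 50.3% in K27M and 29.4% in EZHIP for Gata4 and 52.0% in EZHIP for Gata5, and without peaks under 5000 bp they were 41.6, 20.9 and 40.6%.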

Other observations

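Gata1, the X-linked blood member of the family, lay wholly under a K27R peak over 18.8 kb. No K27M or EZHIP peak touched it, and the nearest to its start site were 49.8 and 51.6 kb away.

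GATA motifs were searched in the 300 bases upstream of 8 start sites of the 5 autosomal genes, as the word GATA after A or T and before A or G, on both strands. The window of the upstream Gata4 start site (chromosome 14, 63890530 to 63890829) held 2 matches, both on the strand opposite to the gene, and the other windows held 0. Of 21418 autosomal promoter windows of this length, 29.9% held a match. This upstream Gata4 start site had 7 CG dinucleotides in its window, against 27 at the site from 63864108, and both kept K27M and EZHIP peaks.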
